A study of Mus musculus with 222 samples.

Results

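The collagen gene family was examined in mammary tumors and normal mammary glands of MMTV-ErbB2 mice. Its members were chosen by symbol alone, as every gene whose symbol has the form Col, a number, a, a number, read from probe sets with a single gene symbol in the platform annotation. This gave 44 collagen genes of 19938 named genes, carried by 46 of 35556 probe sets. Col6a5 and Col6a6 had 2 probe sets each, and the one with the higher mean signal was kept. Levels are log2 signals of a probe set on Affymetrix mouse gene 1.0 ST arrays, so a difference of 1 is a 2-fold difference, and the level of one gene cannot be set against that of another.

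Collagens are secreted or membrane proteins whose chains wind around each other into helices. Fibrillar collagens such as types I, III and V form the cables of the stroma, type IV forms the sheet-like network of basement membranes under epithelium and around vessels, and type VI forms beaded filaments that connect cells to both. FACIT collagens (fibril-associated collagens with interrupted helices) decorate the surface of fibrils, multiplexins lie in the basement membrane zone, and transmembrane collagens stay anchored in the cell that makes them. In the mammary gland most fibrillar collagen is made by fibroblasts, and basement membrane collagen by fibroblasts, endothelial cells and myoepithelial cells.

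The arrays, each of 1 spontaneous tumor or 1 normal gland, were run on total RNA. MMTV-ErbB2 mice carry the ErbB2 protooncogene under the mouse mammary tumor virus promoter, which is active in mammary epithelium, and all came from 1 transgenic line. All tumors came from MMTV-ErbB2 mice, with 26 tumor arrays on the FVB background, 28 on the F1 background (C57BL/6 males crossed to transgenic FVB females) and 160 on the F1BX background (transgenic F1 males crossed to FVB/N females). Of the 8 normal glands, 3 carried the transgene on the FVB background, 2 carried it on the F1 background, and 3 were F1 wild type glands, which lack it. Neither the age of the gland donors nor how glands were taken was found in the sources used here. The array names are those of the labels, and the F1 array 051T1 and the FVB array 063T1 are named in the F1BX form.

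The arrays fell into 2 sets by the interquartile range of their log2 values, and the sets were kept apart. The narrow set, below 2.8, held 34 arrays (20 F1BX tumors, 6 F1 tumors and all 8 glands, range 1.86 to 2.62), and the wide set held 188 tumors (26 FVB, 22 F1 and 140 F1BX, range 3.04 to 3.35). Among F1BX tumors, 85.1% of all probe sets differed between the sets at an adjusted p under 0.05, and 30 of 44 collagens did, 16 higher and 14 lower in narrow arrays, from +0.67 for Col17a1 to -0.70 for Col11a1. Tumors were therefore compared with glands in the narrow set only, and tumor backgrounds in the wide set only. The FVB MMTV-ErbB2 gland replicate 3 stood apart with the lowest interquartile range, 1.86, and comparisons with glands are also given without it where it matters. Erbb2 itself lay between 8.32 and 12.60 in narrow tumors and between 8.27 and 10.48 in glands, and 3 narrow tumors (092T1, F1_26T1 and 076T1) and 1 wide tumor (168T1) had low Erbb2 levels for their set.

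In the narrow set, most collagens that differed between tumors and glands were lower in tumors. Col6a1, Col6a2 and Col6a3 of type VI, Col4a1 and Col4a2 of type IV and both multiplexins fell, as did Col3a1 and Col5a3, whereas Col9a1 and Col11a1, chains best known from cartilage, rose. At a false discovery rate up to 0.005 and a change of 2-fold or more, 9 of 44 collagens fell, against 4.76% of all probe sets, and 2 rose, against 7.37% of all probe sets. As a share, 20.5% of the collagens fell and 4.55% rose. Over all 44 collagens, 35 fold changes were negative and 9 positive, with a median log2 fold change of -0.29, against -0.08 over all named genes. Without FVB MMTV-ErbB2 gland replicate 3, 8 collagens fell, 7 of them among these 9, and 3 rose. With the wide tumors added and no term for the set, 9 collagens fell, 6 of them among the 9 above. Col15a1, Col18a1 and Col4a2 came under 2-fold (-0.75, -0.82 and -0.55), Col1a1, Col1a2 and Col17a1 fell by 1.24, 1.06 and 1.46, and Col4a5 and Col4a6 also rose, Col4a6 by 1.34. With the set as a term the same 9 fell and the same 2 rose as in the narrow set. For these refits the share of all probe sets called was not determined.

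**Figure D1:**
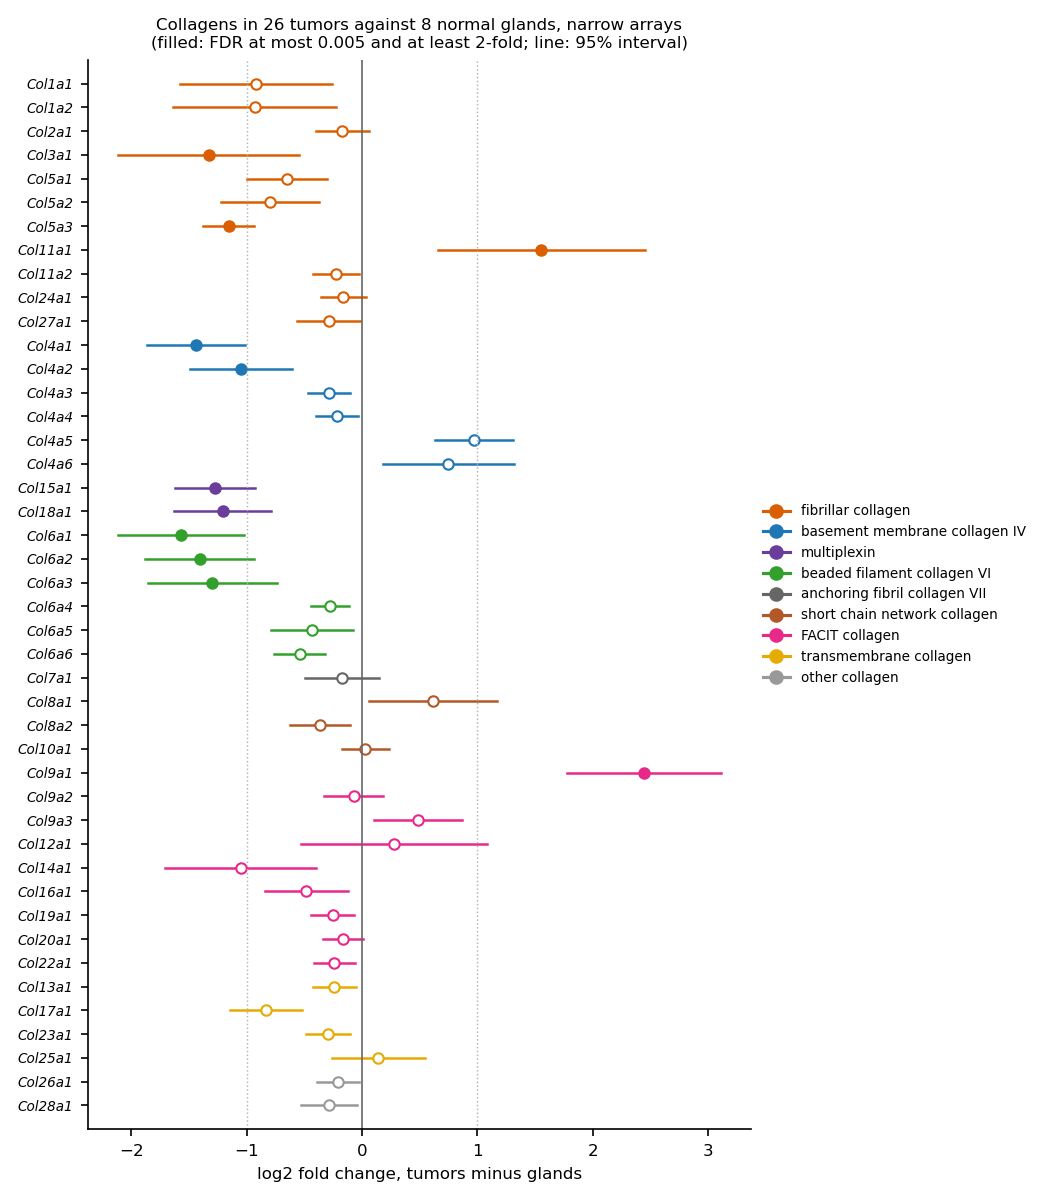
Log2 fold change of each of the 44 collagens in 26 tumors against 8 normal glands of the narrow set (x axis), with 95% intervals as bars, 1 collagen per line, and filled points for those past the false discovery rate and fold thresholds. Col9a1 lies farthest to the right at 2.45 and Col6a1 farthest to the left at -1.57.

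Among the 11 fibrillar collagens, Col3a1 and Col5a3 fell, Col11a1 rose, and the type I chains did not pass. Both type I chains, Col1a1 and Col1a2, are in the study's own list of transcripts that differ between tumors and glands, which came from SAM. So are Col3a1, Col6a3, Col9a1 and Col11a1. The study also filtered its genes by their standard deviation across all samples. The median log2 fold change of the class was -0.65. Col1a1, a chain of the main fibril of the stroma, had levels of 11.66, 11.87 and 11.80 in F1 wild type glands, 11.30 and 12.40 in F1 MMTV-ErbB2 glands, and 10.79, 11.94 and 12.52 in FVB MMTV-ErbB2 glands. The narrow tumors ran from 8.36 to 12.51 with a median of 10.81. Of the 26 tumors, 13 lay inside the range of the glands and 13 lay below every gland. The log2 fold change was -0.92 (95% interval -1.58 to -0.26, adjusted p = 0.0174), under 2-fold. Col1a2, the partner chain of type I, ran from 7.69 to 12.86 in tumors and from 11.14 to 12.11 in glands, a log2 fold change of -0.93 (adjusted p = 0.0241).

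Col3a1, which forms type III fibrils alongside type I, had levels of 10.96, 11.30 and 11.47 in F1 wild type glands, 11.16 and 12 in F1 MMTV-ErbB2 glands, and 10.52, 11.52 and 12.20 in FVB MMTV-ErbB2 glands. In tumors the lowest level was 7.63, the median 10.03 and the highest 12.50. Most tumors (21 of 26) lay below every gland and 2 lay above every gland. It fell by 1.33 on the log2 scale (SE 0.386, adjusted p = 0.00422), a call close to the threshold. The call was lost when any 1 gland other than FVB MMTV-ErbB2 gland replicate 1 was left out, with the adjusted p at 0.0135 without FVB MMTV-ErbB2 gland replicate 3. It was also lost without the tumor arrays that are repeats by their names (adjusted p = 0.00615).

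Col5a3, a chain of type V collagen, was the only collagen whose tumors and glands did not overlap. Its levels were 8.79, 8.37 and 8.84 in F1 wild type glands, 8.38 and 8.63 in F1 MMTV-ErbB2 glands, and 8.48, 8.72 and 9.16 in FVB MMTV-ErbB2 glands, against 7.03 to 8.35 with a median of 7.50 in tumors. All 26 tumors lay below all 8 glands. This pattern was seen in 1 of 44 collagens, a share near the 1.76% of all probe sets, so it does not set the collagens apart. Tumors above all glands made up 4.29% of all probe sets and included no collagen. Col5a3 fell by 1.16 (SE 0.109, adjusted p = 5.3e-11). The other type V chains, Col5a1 and Col5a2, which help to start fibrils and set their width, had log2 fold changes of -0.65 (adjusted p = 0.00184) and -0.80 (adjusted p = 0.00177), past the false discovery rate but under 2-fold, and 22 of 26 tumors lay below every gland for each.

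Col11a1 encodes a minor fibrillar chain of cartilage that is also made by activated fibroblasts of tumors. Its levels were 7.82, 7.55 and 7.81 in F1 wild type glands, 7.88 and 7.74 in F1 MMTV-ErbB2 glands, and 7.70, 7.62 and 8.50 in FVB MMTV-ErbB2 glands. In narrow tumors it ran from 7.37 to 11.08 with a median of 9.86, and 18 of 26 tumors lay above every gland while 3 lay below. It rose by 1.55 (SE 0.443, 95% interval 0.66 to 2.45, adjusted p = 0.00366). The call was near the threshold and was lost when any 1 gland other than FVB MMTV-ErbB2 gland replicate 3 was left out, with the adjusted p between 0.00607 and 0.00785. The other fibrillar members, Col2a1 (the main collagen of cartilage), Col11a2, Col24a1 and Col27a1, did not pass.

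**Figure D2:**
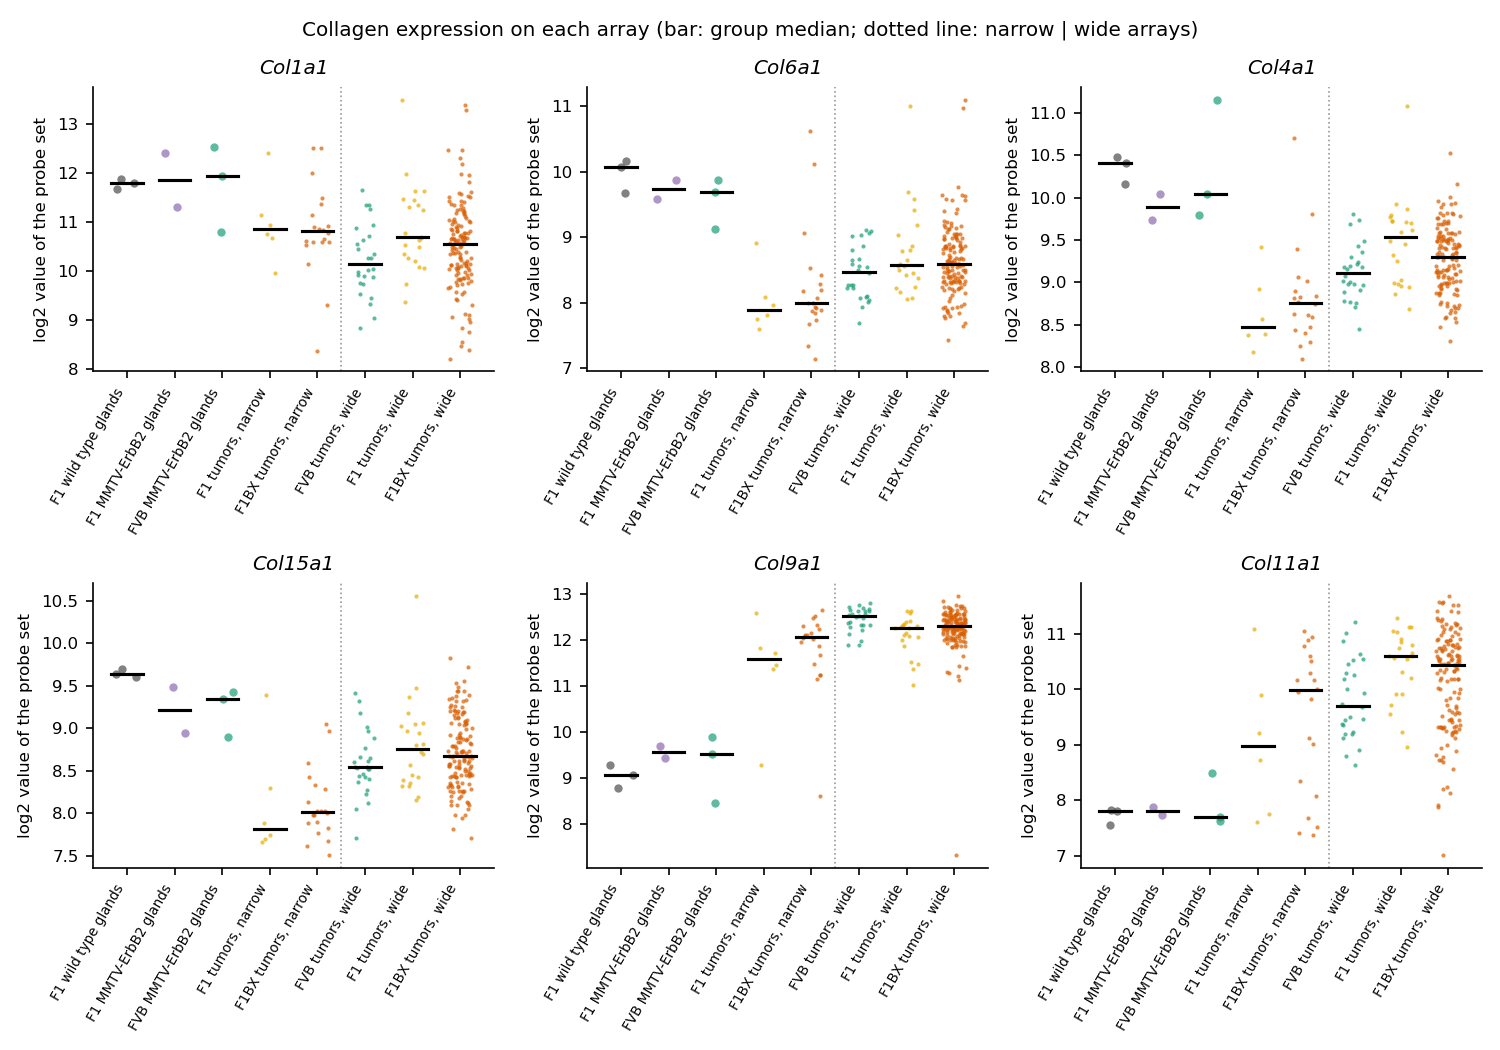
Log2 signal (y axis) of Col1a1, Col6a1, Col4a1, Col15a1, Col9a1 and Col11a1 on every array, by kind of gland or tumor and array set (x axis), 1 point per array with a bar at the group's median. Col9a1 lies between 8.44 and 9.88 in glands with a median of 11.98 in narrow tumors, and the Col6a1 medians run the other way, 9.79 in glands and 7.98 in narrow tumors.

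Type VI collagen fell through its main chains. Col6a1 had levels of 10.08, 9.68 and 10.17 in F1 wild type glands, 9.58 and 9.88 in F1 MMTV-ErbB2 glands, and 9.13, 9.70 and 9.88 in FVB MMTV-ErbB2 glands, against 7.15 to 10.62 with a median of 7.98 in tumors. Of 26 tumors, 24 lay below every gland, 1 lay within their range and 1, 092T1, lay above. Col6a1 fell by 1.57 (SE 0.268, adjusted p = 7.49e-06). Col6a2 and Col6a3, the chains that complete the common type VI molecule, fell by 1.41 (adjusted p = 4.58e-06) and 1.30 (adjusted p = 0.00018), each with 23 of 26 tumors below every gland. The chains that can take the place of Col6a3 differed by less, with log2 fold changes of -0.54 for Col6a6 (adjusted p = 9.04e-05) and -0.43 for Col6a5 (adjusted p = 0.038). Col6a4, a further such chain, had -0.28 (adjusted p = 0.00499), with 16 of 26 tumors below every gland.

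The basement membrane chains moved in both directions. Col4a1, which with Col4a2 forms the network found in nearly every basement membrane, had levels of 10.48, 10.16 and 10.41 in F1 wild type glands, 9.74 and 10.04 in F1 MMTV-ErbB2 glands, and 9.79, 10.04 and 11.16 in FVB MMTV-ErbB2 glands. Tumors ran from 8.10 to 10.71 with a median of 8.69, and 24 of 26 lay below every gland. Col4a1 fell by 1.44 (SE 0.211, adjusted p = 5.3e-07) and Col4a2 by 1.05 (SE 0.219, adjusted p = 0.000125), though Col4a2 came under 2-fold, at -0.97, without the FVB MMTV-ErbB2 gland replicate 3.

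Col4a5 and Col4a6 form another network, found in the basement membranes of smooth muscle and of some epithelia. Col4a5 ran from 7.23 to 9.22 with a median of 8.70 in tumors and from 7.24 to 8.23 in glands, and 22 of 26 tumors lay above every gland. Its log2 fold change of 0.97 (adjusted p = 8.21e-06) passed the false discovery rate but not the fold. Col4a6 had a log2 fold change of 0.75 (adjusted p = 0.0246), with F1 wild type glands at 7.55, 8.36 and 8.10, above F1 MMTV-ErbB2 glands at 6.80 and 7.13.

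Both multiplexins, collagens of the basement membrane zone of vessels and epithelium, fell. Col15a1 had levels of 9.69, 9.60 and 9.64 in F1 wild type glands, 8.95 and 9.48 in F1 MMTV-ErbB2 glands, and 8.89, 9.34 and 9.42 in FVB MMTV-ErbB2 glands, and ran from 7.52 to 9.40 with a median of 7.99 in tumors. It fell by 1.27 (SE 0.171, adjusted p = 1.04e-07), with 23 of 26 tumors below every gland. Col18a1, whose end fragment is endostatin, fell by 1.21 (SE 0.208, adjusted p = 8.61e-06), with 25 of 26 tumors below every gland and 092T1 above all of them.

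Of the 9 FACIT collagens, Col9a1 rose and none fell. Col9a1, a chain of the type IX collagen that coats type II fibrils in cartilage, had levels of 8.78, 9.28 and 9.06 in F1 wild type glands, 9.68 and 9.42 in F1 MMTV-ErbB2 glands, and 9.51, 8.44 and 9.88 in FVB MMTV-ErbB2 glands. In narrow tumors the lowest level was 8.60, the median 11.98 and the highest 12.64. The 2 tumors that did not lie above every gland were 092T1 at 8.60 and F1_26T1 at 9.27, both with low Erbb2. Col9a1 rose by 2.45 (SE 0.327, 95% interval 1.78 to 3.11, adjusted p = 1e-07), and by 2.71 without the 3 narrow tumors of low Erbb2. Its partner chains did not follow, with log2 fold changes of -0.07 for Col9a2 (adjusted p = 0.647) and 0.49 for Col9a3 (adjusted p = 0.0284). Col12a1 and Col14a1, which sit on type I fibrils, had log2 fold changes of 0.28 (adjusted p = 0.573) and -1.05 (adjusted p = 0.00641), and the latter missed the false discovery rate narrowly.

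Among the remaining classes none passed both thresholds. Col17a1, the transmembrane collagen of the hemidesmosomes of basal epithelial cells, came nearest with a log2 fold change of -0.83 (adjusted p = 2.44e-05) and 22 of 26 tumors below every gland. Col7a1, which forms anchoring fibrils, had -0.18, and the short chain collagens Col8a1 and Col8a2 of vessel walls and the cornea had 0.61 and -0.36.

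Several lists of other genes moved with the collagens in this comparison. Of 12 fibroblast markers 10 fell, among them Pdgfra by 2.54 and Dpt by 3.30, and the mean level of the list ran from 6.93 to 9.48 in narrow tumors and from 8.54 to 9.84 in glands. Of 8 endothelial markers 5 fell, among them Pecam1 by 1.93, with a list level of 7.27 to 9.21 in tumors and 8.10 to 9.48 in glands. Of 7 basal epithelial markers 5 fell, among them Krt14 by 2.81, and 2 of 7 pericyte and smooth muscle markers fell. All 6 T and B cell markers and 1 of 6 adipocyte markers fell, 2 of 8 macrophage markers rose, 2 of 7 luminal epithelial markers rose and 1 fell, 1 of 2 Schwann cell markers rose and the other fell, and none of the 6 skeletal muscle markers passed. None of the 4 cartilage markers passed in either direction beside the rise of Col9a1 and Col11a1. In bulk tissue, fewer cells of a type and less RNA per cell cannot be told apart, and the part of these cell types in the collagen differences was not tested.

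The genes that build, process and bind collagens moved in both directions. Of 17 genes of collagen modification and folding, Plod1, a lysyl hydroxylase, rose by 1.53, P4ha2, a prolyl hydroxylase subunit, fell by 1.18, and Serpinh1, the collagen chaperone, had a log2 fold change of -0.65 (adjusted p = 0.00835). Of 11 genes of propeptide cleavage and crosslinking, Adamts3, a procollagen peptidase, rose by 1.44 and 3 fell, among them Pcolce by 1.04, an enhancer of procollagen cleavage, while the crosslinking enzyme Lox had -0.40 (adjusted p = 0.427). Of 9 collagen receptors and uptake genes, Ddr2 and Itga2 fell by 2.56 and 1.60. Of 16 basement membrane partners 5 fell, among them Lama2 by 2.67 and Nid1 by 1.71, and Npnt rose by 2.8. Of 13 fibril-associated proteins 5 fell, led by the small proteoglycans Dcn (3.15) and Lum (3.13), and Comp, a cartilage matrix protein, rose by 2.08.

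A single tumor held many of the extreme values. Tumor 092T1 (F1BX) had the highest level of the 26 narrow tumors for Col1a1 (12.51), Col1a2 (12.86), Col3a1 (12.50), Col4a1 (10.71), Col6a1 (10.62), Col6a3 (11.53), Col12a1 (12.69) and Col18a1 (9.91). It had the lowest level for Col9a1 (8.60), Col4a5 (7.23) and Col4a6 (6.36). Its Erbb2 level, 8.32, was the lowest of the 26, its mean level of the luminal epithelial markers was the lowest (8.09, against up to 11.65) and its macrophage marker level the highest (10.75). Without 092T1, F1_26T1 and 076T1, the same 9 collagens fell, and Col4a5 rose by 1.06 beside Col9a1 and Col11a1.

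A contrast within a single background set the 6 narrow F1 tumors, from MMTV-ErbB2 mice, against the 3 F1 wild type glands. Background was shared, but the transgene was present in the tumors only. At an adjusted p under 0.05, 12 collagens fell, against 12.6% of all probe sets, and 1 rose, against 14.5% of all probe sets. Col9a1 again rose, by 2.32 (adjusted p = 0.00282). The steepest falls were Col6a1 by 1.95 (adjusted p = 0.00245), Col4a1 by 1.71 (adjusted p = 0.000751), Col6a2 by 1.70 (adjusted p = 0.00242) and Col15a1 by 1.53 (adjusted p = 0.000248). Col17a1 fell by 1.26 (adjusted p = 0.000114), Col18a1 by 1.44, Col6a3 by 1.44, Col4a2 by 1.40 and Col5a3 by 1.21. Col16a1, Col28a1 and Col6a6 fell by 0.96, 0.61 and 0.59, each lost when F1 wild type gland replicate 1 or 3 was left out, and Col6a3 was lost when any of the 3 was left out. Mean levels in narrow F1 tumors and in the 2 F1 MMTV-ErbB2 glands were 6.83 and 6.88 for Col28a1, and 7.73 and 7.91 for Col6a6. They were 7.465 and 7.89 for Col17a1, and farther apart for Col6a1, at 8.02 and 9.73. The difference between F1 tumors and F1 MMTV-ErbB2 glands alone was not tested. Col1a1 (-0.80, adjusted p = 0.34) and Col11a1 (1.32, adjusted p = 0.235) did not pass. These tumors and glands were also part of the comparison above, so the values are not independent of it.

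Glands with and without the transgene on the F1 background showed no collagen past the threshold. Between F1 MMTV-ErbB2 and F1 wild type glands, limma called 0 of 44 collagens at an adjusted p under 0.05, against 0.92% of all probe sets. An unadjusted p under 0.05 was reached by 3453 of 35556 probe sets and, as a smaller share, by 3 of 44 collagens. These were Col17a1 (-0.84, adjusted p = 0.25), Col16a1 (-0.87, adjusted p = 0.42) and Col28a1 (-0.56, adjusted p = 0.448). Col17a1 was at 7.68 and 8.09 in F1 MMTV-ErbB2 glands and at 8.57, 8.90 and 8.70 in F1 wild type glands, and 2 of 7 basal epithelial markers fell in the same comparison. Between FVB and F1 MMTV-ErbB2 glands, 4 of 44 collagens had an unadjusted p under 0.05, a smaller share than the 5989 of 35556 probe sets. There limma also called 0 collagens, against 0.0112% of all probe sets. That count rose to 4 called, all higher in FVB glands (Col2a1, Col19a1, Col20a1 and Col26a1), without FVB MMTV-ErbB2 gland replicate 1, so that it rested on which FVB glands were kept. The FVB MMTV-ErbB2 gland replicate 3, which was kept, lay far above the other glands for Col2a1 (8.85), Col20a1 (8.91) and Col26a1 (8.76). The share of all probe sets called without replicate 1 was not determined, so these 4 cannot be set against it.

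Among the 188 wide tumors, few collagens differed by genetic background. In the study, tumors arose earliest in FVB mice, later in F1BX mice and latest in F1 mice. Age at tumor onset thus differed along with background, and its part in the collagen values was not tested. Between F1 and FVB tumors, 2 of 44 collagens passed an adjusted p under 0.05, or 4.55%, against 12.3% of all probe sets. Col9a3, a partner chain of Col9a1, had levels of 8.12 to 10.21 with a median of 8.60 in FVB tumors and of 8.63 to 10.04 with a median of 9.36 in F1 tumors, and rose by 0.49 (SE 0.158, adjusted p = 0.0244). Col4a1 ran from 8.45 to 9.80 with a median of 9.12 in FVB tumors and from 8.68 to 11.08 with a median of 9.54 in F1 tumors, and rose by 0.35 (SE 0.118, adjusted p = 0.0355). The groups overlapped widely for both genes. Both calls were lost with 1 array per mouse, with an adjusted p of 0.0828 for Col9a3 and 0.123 for Col4a1, and that of Col4a1 also without 051T1 and 063T1 (adjusted p = 0.051).

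Larger differences between F1 and FVB tumors belonged to variable genes and did not pass. Col1a1 had medians of 10.15 in FVB and 10.68 in F1 tumors and a log2 fold change of 0.63 (95% interval 0.13 to 1.13, adjusted p = 0.0814). Col11a1 had 0.62 (adjusted p = 0.0824), Col12a1 0.56 (adjusted p = 0.14) and Col1a2 0.48 (adjusted p = 0.207). Over the 44 collagens 29 fold changes were positive, with a median of 0.09 against -0.03 over all named genes. In the same comparison 3 of 16 basement membrane partners rose and 3 fell, among them the laminin chains Lamb1 (rose by 0.51), Lama5 (rose by 0.46) and Lamb3 (fell by 1.18) and the integrin ligand Npnt (fell by 0.54). Tnc, a matrix glycoprotein of remodeling stroma, rose by 0.84 and Plod2, a lysyl hydroxylase, by 0.71. Of the marker lists, 1 of 12 fibroblast, 1 of 8 endothelial, 2 of 7 pericyte and smooth muscle, 1 of 7 luminal epithelial and 4 of 8 macrophage markers rose and 1 of 2 Schwann cell markers, Cdh19, fell by 1.06, and their part in the collagen values was not tested.

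Some fibrillar and type VI collagens, named here after their values had been seen, had highest levels in F1 and in F1BX tumors above that of any FVB tumor. The pattern was not particular to these classes. It also held for Col4a1 (highest levels 9.80 in FVB, 11.08 in F1 and 10.53 in F1BX tumors), Col4a2, Col15a1, Col18a1 and Col8a1. The share of all probe sets with this pattern was not determined. Col1a1 reached 11.65 in FVB, 13.49 in F1 and 13.39 in F1BX tumors. Col6a1 ran from 7.69 to 9.11 with a median of 8.48 in FVB tumors, from 8.06 to 11 with a median of 8.58 in F1 tumors and from 7.44 to 11.10 with a median of 8.60 in F1BX tumors. Col3a1 had medians of 9.68, 10.11 and 9.92 and highest levels of 11.88, 12.85 and 12.96 in FVB, F1 and F1BX tumors, in that order. For Col6a3 the medians were 9.03, 9.35 and 9.18 and the highest levels 10.17, 11.75 and 12.05, and for Col5a2 the medians were 7.68, 7.93 and 8.00 and the highest levels 8.86, 10.82 and 10.55. Fewer FVB tumors were measured than F1BX tumors, which bears on a highest value, and the difference of the upper ends was not tested. Of the fibrillar and type VI genes named here none passed the test between F1 and FVB tumors. Intervals for the log2 fold change were -0.01 to 0.62 for Col6a1, -0.27 to 0.76 for Col3a1, 0.03 to 0.84 for Col6a3 and -0.06 to 0.64 for Col5a2. The multiplexins Col15a1 and Col18a1 had log2 fold changes of 0.22 (adjusted p = 0.258) and 0.19 (adjusted p = 0.277).

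Col9a1 passed the test between F1 and FVB tumors without 1 array and not with it. Its levels ran from 11.89 to 12.80 with a median of 12.50 in FVB tumors and from 11.01 to 12.62 with a median of 12.25 in F1 tumors. The log2 fold change was -0.33 (SE 0.142, adjusted p = 0.107) with all wide tumors and -0.33 (SE 0.0951, adjusted p = 0.0113) without 168T1, an F1BX tumor that enters the common estimate of the spread. That tumor was left out after its values had been seen.

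**Figure D3:**
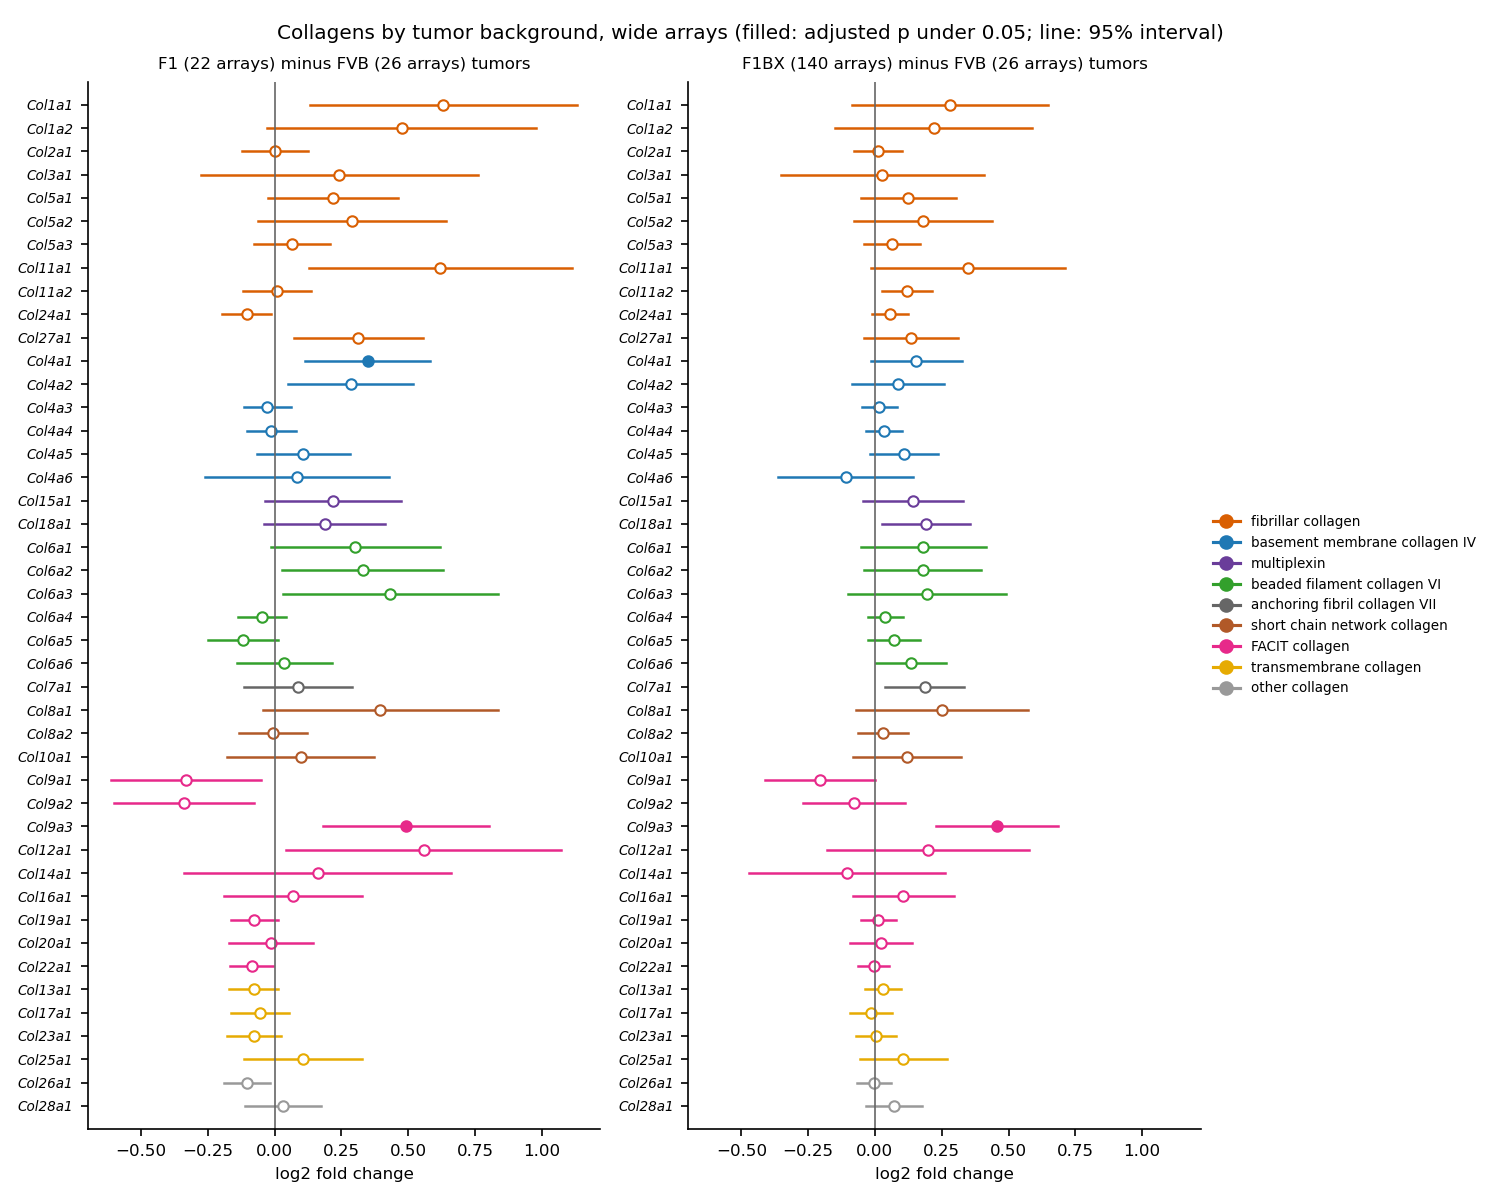
Log2 fold change of each of the 44 collagens in wide tumors (x axis), F1 against FVB and F1BX against FVB, with 95% intervals as bars, 1 collagen per line, and filled points for those with an adjusted p under 0.05. Both contrasts share the FVB tumors, and Col9a3 is called in both, at 0.49 and 0.46.

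Between F1BX and FVB tumors 1 of 44 collagens passed, Col9a3, against 6.74% of all probe sets. Its F1BX levels ran from 7.24 to 10.44 with a median of 9.31, and it rose by 0.46 (adjusted p = 0.00525). Both comparisons share the FVB tumors. Between F1BX and F1 tumors 2 collagens passed, against 3.65% of all probe sets. Col24a1, a fibrillar chain, rose by 0.16 (adjusted p = 0.00532) and Col6a5 by 0.19 (adjusted p = 0.0263), from medians of 6.59 and 6.45 in F1 tumors to 6.77 and 6.74 in F1BX tumors. Both probe sets were removed by a filter on low signal, and Col6a5 was not called with the mean of its 2 probe sets (0.06, adjusted p = 0.51). The difference between F1BX and F1 tumors was itself compared between the narrow and the wide set, where limma called 0 collagens, against 0% of all probe sets. An unadjusted p under 0.05 was reached by 2309 of 35556 probe sets and, as a smaller share, by 1 of 44 collagens.

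The levels of many collagens varied from tumor to tumor within a background. Within backgrounds of the wide set, the standard deviation had a median of 0.393 over collagens and 0.238 over all probe sets, and 30 of 44 collagens exceeded the latter. Fibrillar collagens and their FACIT partners led, with Col3a1 and Col12a1 at 0.891, Col1a2 at 0.869, Col14a1 at 0.864, Col1a1 at 0.863 and Col11a1 at 0.854. Col1a1 ran from 8.21 to 13.39 in F1BX tumors alone. Col9a1, at 0.486, varied less, and Col22a1 least, at 0.135.

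Tumors of the same mouse could differ widely in their collagens. For the 38 mice with more than 1 wide tumor array (95 arrays), the range within a mouse had a median of 1.05 for Col1a1, 0.529 for Col4a1 and 0.613 for Col6a1, and reached 4.54 for Col1a1. The correlation of tumors within a mouse was 0.0657 for Col1a1 and -0.128 for Col4a1. Col9a1 had the highest such correlation of the collagens, 0.586, with a median range within a mouse of 0.31, and Col9a2 followed with 0.24. The wide tumor with the lowest Col9a1 level, 7.33, against 11.01 for the next lowest, came from a mouse with no other array. The correlation for Col9a1 without this tumor was not determined, so how far it rests on that tumor is not known. By their names, 2 tumors were measured again in the other array set, and the median absolute difference over collagens was 0.411 for 035T1 and 0.194 for 246T1.

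The levels of chains that build the same molecule were correlated across tumors. Correlations used 1 wide tumor per mouse, the first by name (22 FVB, 16 F1 and 93 F1BX mice), and 20 pairs were tested, 6 of them chosen after values had been seen. For Col1a1 and Col1a2 Pearson's r was 0.98 and Spearman's rho 0.98 (adjusted permutation p = 1.54e-05 for both), and r was 0.98 without the 2 mice farthest from the median of Col1a1. For Col4a1 and Col4a2 r was 0.96 and rho 0.96, and for Col6a1 and Col6a2 r was 0.97 and rho 0.96, with the same adjusted p, which derives from the smallest p that the permutations can give, 1e-05. Within backgrounds r was 0.98 to 0.99, 0.96 to 0.97 and 0.97 to 0.98 for these pairs, and in the 26 narrow tumors 0.98, 0.98 and 0.92. Col6a1 and Col6a3 had r of 0.87 and rho of 0.83, and Col4a3 and Col4a4, chains of the kidney basement membrane, r of 0.48 and rho of 0.44, each with an adjusted permutation p of 1.54e-05. Within backgrounds, r for Col4a3 and Col4a4 was 0.61 in FVB, 0.34 in F1 (adjusted permutation p = 0.248) and 0.47 in F1BX tumors. Both varied little, with standard deviations within backgrounds of 0.151 and 0.155.

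**Figure D4:**
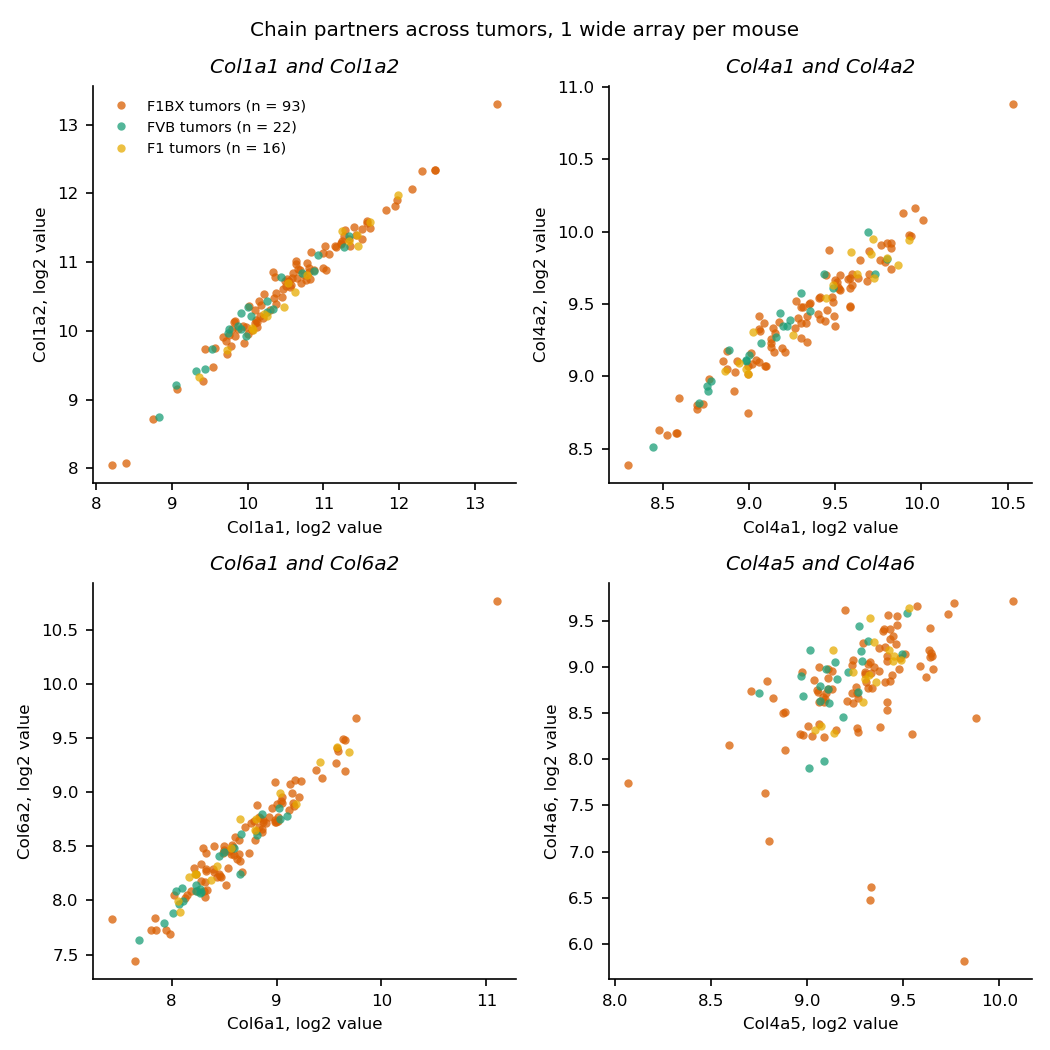
Log2 signals of the chains of a pair, one on each axis, for Col1a1 and Col1a2, Col4a1 and Col4a2, Col6a1 and Col6a2, and Col4a5 and Col4a6, 1 point per mouse (22 FVB, 16 F1 and 93 F1BX mice of the wide set, the first tumor by name) with background shown by color. The points of the first 3 pairs lie close to a line (r of 0.98, 0.96 and 0.97), and those of Col4a5 and Col4a6 scatter (r of 0.37).

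Chains of different classes were also correlated. Col1a1 had r of 0.92 and rho of 0.90 with Col3a1, r of 0.91 and rho of 0.90 with Col6a1, and r of 0.75 and rho of 0.70 with Col4a1, and Col4a1 had r of 0.80 and rho of 0.76 with Col6a1 (adjusted permutation p = 1.54e-05 for each). Without the 2 farthest mice r was 0.91, 0.91, 0.71 and 0.77, and within backgrounds it was at least 0.71 for all of these pairs. Against genes outside the family, Col1a1 had r of 0.65 and rho of 0.57 with the proteoglycan Dcn (adjusted permutation p = 1.54e-05), and r of 0.31 and rho of 0.31 with the chaperone Serpinh1 (adjusted permutation p = 0.000312 for r). Within backgrounds, r for Col1a1 and Dcn was 0.36 in FVB (adjusted permutation p = 0.13), 0.75 in F1 and 0.72 in F1BX tumors, and for Col1a1 and Serpinh1 it was 0.39 in FVB (adjusted permutation p = 0.0962), 0.67 in F1 and 0.28 in F1BX tumors. Col4a1 had r of 0.58 and rho of 0.55 with Pecam1, an endothelial adhesion molecule (adjusted permutation p = 1.54e-05), and r of 0.43 in FVB (adjusted permutation p = 0.0653), 0.70 in F1 and 0.59 in F1BX tumors. Paired values come from the same arrays, and the part of the share of stroma in each tumor was not tested.

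The genes of the common type IV chains start at one place in the genome. In the RefSeq windows of GRCm38.p6, Col4a1 starts at position 11312826 of chromosome 8 on the minus strand and Col4a2 at position 11312805 on the plus strand. The transcripts thus run apart and overlap over their first 22 positions, on opposite strands. These 22 bases are shown because both genes start within them. The segment is written on the plus strand.
Col4a1 and Col4a2, chr8:11312805-11312826: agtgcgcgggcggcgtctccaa

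Col4a5 and Col4a6 also lie head to head, on the X chromosome, but their starts (141475419 on the plus strand and 141474076 on the minus strand) are 1343 bases apart. Between them r was 0.37 (adjusted permutation p = 9.33e-05) and rho 0.58 over all mice, and r was 0.31 without the 2 farthest mice, 0.54 in FVB, 0.73 in F1 and 0.35 in F1BX tumors, and 0.70 in the 26 narrow tumors. The 250 bases before each start are given 5′ to 3′ on the strand of the gene, as windows that do not overlap each other, unlike the starts above, with capitals for CCAAT, a motif of many promoters, searched on both strands (as CCAAT or ATTGG).
Col4a5, chrX:141475169-141475418, plus strand: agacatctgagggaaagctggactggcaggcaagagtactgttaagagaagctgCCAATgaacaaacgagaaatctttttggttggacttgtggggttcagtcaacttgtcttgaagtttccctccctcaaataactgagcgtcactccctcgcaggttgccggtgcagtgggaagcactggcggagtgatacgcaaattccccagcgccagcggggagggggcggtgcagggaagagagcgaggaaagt
Col4a6, chrX:141474077-141474326, minus strand: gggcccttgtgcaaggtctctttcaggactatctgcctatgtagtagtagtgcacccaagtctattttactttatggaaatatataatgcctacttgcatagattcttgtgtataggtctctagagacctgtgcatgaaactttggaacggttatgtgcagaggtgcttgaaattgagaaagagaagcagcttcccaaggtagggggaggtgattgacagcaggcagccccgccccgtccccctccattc
Col4a5 had CCAAT 196 bases before its start and Col4a6 had none in this window. Windows were found for 35 of 44 collagens (38 windows), and CCAAT or its reverse stood in 13 of them, or 34.2%, against 33.8% of 32851 windows of all genes. The motif GGGCGG stood in 57.9% of the collagen windows and 32.7% of all windows, and TATAA in 18.4% and 22.8%.

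The type IX chains build a single molecule in cartilage. These pairs were chosen after values had been seen. Col9a1 and Col9a2 had r of 0.45 and rho of 0.41 over all mice (adjusted permutation p = 1.54e-05 for r), r of 0.43 to 0.57 within backgrounds, r of 0.42 without the 2 farthest mice and r of 0.57 in narrow tumors. Col9a1 and Col9a3 had r of 0.19 (adjusted permutation p = 0.0298) that turned to -0.13 without the 2 farthest mice, so the relation rested on those mice. Within backgrounds r was -0.43 in FVB, -0.33 in F1 and 0.38 in F1BX tumors, and in narrow tumors 0.55. Col9a2 and Col9a3 had r of 0.17 and rho of 0.12 (adjusted permutation p = 0.0555 for r), and r of 0.50 in narrow tumors (adjusted permutation p = 0.00956). Col9a1 and Col11a1 had r of 0.40 (adjusted permutation p = 7.14e-05) and rho of 0.24, r of 0.22 without the 2 farthest mice, and r of -0.29 in FVB, 0.53 in F1 and 0.51 in F1BX tumors. Col9a1 and Col1a1 had r of -0.21 (adjusted permutation p = 0.0231) and rho of -0.11 (adjusted permutation p = 0.226).

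The lowest Col9a1 levels were found in tumors of low Erbb2. In the wide set, 168T1 had the lowest Erbb2 level of 188 tumors, 9.33, and the lowest Col9a1 level, 7.33, while the next lowest levels were 11.73 and 11.01. The same tumor had the lowest Col11a1 (7.02) and Col9a3 (7.24) of the 188 and the highest Col18a1 (9.95). In the narrow set, 092T1 had Erbb2 at 8.32 and Col9a1 at 8.60, F1_26T1 had 9.72 and 9.27, and 076T1 had 10.31 and 11.22. The mean level of the luminal epithelial markers was the lowest of its set in 168T1 (8.37) and 092T1 (8.09), and the highest in F1_26T1 (11.65). Basal markers were highest in F1_26T1 (9.02) and lowest in 168T1 (6.19), and the level of the cartilage markers was the highest of the wide set in 168T1 (7.76). Because such tumors stand apart, no pooled Pearson's r is given for Col9a1 and Erbb2. In the wide set rho was 0.13 (adjusted permutation p = 0.148), and r without the 2 mice farthest from the median of Col9a1 was 0.17 (adjusted permutation p = 0.0612). In the narrow tumors rho was 0.53 (adjusted permutation p = 0.00725), and r without the 2 farthest tumors was 0.47, with no p computed. The glands, with Erbb2 at 8.27 to 8.35 in F1 wild type and 9.05 to 10.48 in MMTV-ErbB2 glands, had Col9a1 between 8.44 and 9.88.

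**Figure D5:**
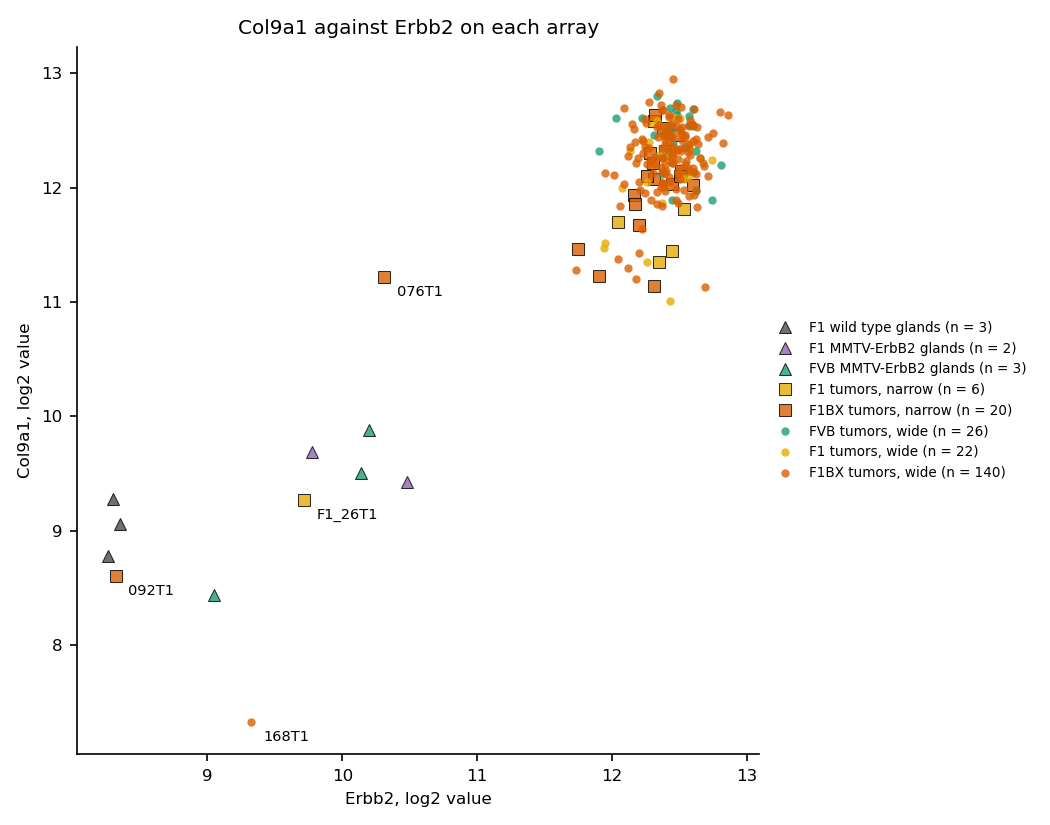
Log2 signal of Col9a1 (y axis) against that of Erbb2 (x axis) on all arrays, 1 point per array, by glands, narrow tumors and wide tumors, with the 4 tumors of low Erbb2 named. Tumor 168T1 lies at 9.33 and 7.33, away from the other wide tumors, which lie above 11 on both axes.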

How the data were processed

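Expression was measured on 214 arrays of mouse mammary tumors, 2 of them repeats by their names, and on 8 arrays of glands. Per the labels and methods, the authors normalized the arrays with RMA and deposited log2 values, and no count or depth exists. The software version, genome build and annotation release were not given in the sources used here. Arrays were divided at an interquartile range of 2.8, and 1 probe set per gene was kept (the highest mean). Groups were compared with limma 3.58.1 (statmod 1.5.0, R 4.3.3) over all 35556 probe sets with Benjamini-Hochberg adjustment, in place of the SAM test of the study's methods, at its thresholds (FDR 0.005, 2-fold) for tumors against glands and at an adjusted p under 0.05 elsewhere. The study's further filter on the standard deviation across samples was not applied. The mouse was a random block in the wide set (consensus correlation 0.0906). Each narrow array came from a different mouse by name, so no block entered there. Nothing says that the glands came from separate animals, and p-values measure the spread between these samples. Correlations used 100000 permutations (scipy 1.17.1, numpy 2.4.6, pandas 2.3.3, Python 3.11.15, matplotlib 3.10.9), adjusted over 20 pairs. Promoter windows came from RefSeq (GRCm38.p6).

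The members and gene lists were chosen with earlier results of these data known. By the rule for named genes, any collagen could be named. Of each other list, up to 4 genes of the largest change among those called, and Serpinh1, Lox, P4ha1, Dcn, Pdgfra, Pecam1, Krt14 and Erbb2, could be named. Comp was named after its value had been seen. The limma fits were tested on simulated data. Alternatives were quantile normalization, a filter on low signal, the mean of probe sets, 1 array per mouse, trend and robust variance, all arrays with and without the set as a term, and arrays left out.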

Additional observations from a re-analysis of the deposited data

Results flagged for a closer look

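In 21 of 88 groups of collagen values examined (the 8 glands or the 6 narrow F1 tumors, for each of the 44 genes), a single array lay far from the others of its group, measured as its gap to the nearest array over the whole range. Chance marks about 1 in 20 such groups, but the groups share the same arrays, so the count cannot be judged against that rate. In 16 of the 21 groups the array was FVB MMTV-ErbB2 gland replicate 3, the gland with the lowest interquartile range, and it was always the highest of the 8 glands. Its levels were 8.50 for Col11a1, 8.96 for Col11a2, 8.49 for Col13a1, 8.91 for Col20a1, 8.39 for Col22a1, 8.68 for Col23a1, 7.69 for Col24a1 and 8.76 for Col26a1. They were 9.34 for Col27a1, 8.85 for Col2a1, 7.86 for Col4a3, 8.52 for Col4a4, 7.91 for Col6a4, 8.48 for Col8a2, 9.74 for Col9a2 and 9.14 for Col9a3. Among the F1 tumors of the narrow set, F1_27T1 was far above the others for Col15a1 (9.40), Col5a1 (8.56) and Col6a1 (8.91), and F1_25T1 for Col7a1 (8.65). F1_26T1, a tumor of low Erbb2, was far below them for Col9a1 (9.27).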

How the results depend on the processing

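Between tumors and glands, the 2 rises became 1 after quantile normalization and without the repeat arrays, as Col11a1 was lost, and 4 with all arrays. Among the falls, Col3a1 was lost without the repeat arrays (adjusted p = 0.00615). Col14a1 was gained as a fall after quantile normalization (adjusted p = 0.0017) and with a filter on low signal (adjusted p = 0.00482). Leaving out 1 gland gave 1 to 3 rises and 8 to 9 falls there, 8 to 15 falls of F1 tumors against F1 wild type glands, and 0 to 4 higher collagens in FVB against F1 MMTV-ErbB2 glands. With only the arrays of the groups compared, F1 tumors against wild type glands had 2 rises and 18 falls (12 before) and F1 MMTV-ErbB2 against wild type glands 1 fall. Between F1 and FVB tumors, the 2 rises became 0 with 1 array per mouse or with all tumors regardless of set, and 1 without 051T1 and 063T1 or with the set as a term, and the 0 falls became 2 with all tumors regardless of set and 1 without 168T1. Between F1BX and F1 tumors the 2 rises became 0 after a filter on low signal, 1 with the mean of probe sets or all tumors regardless of set, and 4 without 051T1 and 063T1. The r of Col9a1 and Col9a3 was -0.13 without the 2 farthest mice, that of Col9a2 and Col9a3 0.50 and that of Col1a1 and Col9a1 -0.31 in narrow tumors, and that of Col9a1 and Erbb2 0.17 without the 2 farthest mice. The share of all probe sets called was not determined for these alternatives, so the changed counts cannot be read as particular to collagens. The cause of these changes was not tested. Of the other counts and correlations, 197 values stayed close to the count or kept the call given above, and of values of single genes 488 kept their call, 38 lost it and 2 gained one. The alternatives without 168T1 and the 6 added pairs were chosen after seeing the data. With a replicate block among the glands, whose shared numbers nothing says are pairs, 0 collagens were called in either gland comparison. The number of arrays limits precision, and the glands lie in the narrow set alone. No array holds FVB tumors in that set, so FVB tumors were not compared with glands.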
